A study of Mus musculus with 8 samples.

Results

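Cholesterol synthesis and handling genes were described in epithelial cells of the mouse distal colon. The set holds 32 genes named by symbol from knowledge of the pathway, and all 32 were found by Ensembl gene ID among the 54141 genes of the deposited table. RNA-seq libraries came from wild-type mice (WT, 4 libraries) and from mice homozygous for a mutant Degs2 allele (Degs2_KO, 4 libraries), both on the c57bl6/j background. The enzyme made from Degs2 adds a hydroxyl group to ceramide precursors, giving phytoceramides, and the series compares the transcriptomes of the genotypes. The cells were released from pieces of distal colon with EDTA and passed through a strainer, with no sort. The kind of mutation, the age of the mice and whether each library came from its own mouse were not stated in the labels. The p-values therefore reflect the spread among libraries, part of which may be technical.

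Cells make cholesterol from acetyl-CoA through mevalonate, isoprenoids, squalene and lanosterol, and the genes of this route are switched on together by SREBP2 (Srebf2) when sterols in the endoplasmic reticulum run low. Scap carries SREBP2 to the Golgi for activation, and the Insig proteins hold the pair back when sterols are plentiful. Liver X receptors, which sense oxysterols, act in the opposite sense, on genes of cholesterol efflux (Abca1, Abcg1) and of removal of lipoprotein receptors (Mylip), while Soat enzymes store cholesterol as esters. The colon epithelium renews fast and needs sterols for new membrane, whereas absorption of dietary cholesterol through Npc1l1 belongs mainly to the small intestine.

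The libraries held between 32.8 M and 49.8 M fragments. Summed CPM (counts scaled to a common library size, normalized with TMM) of 8 epithelial markers lay between 13418 and 16611 per library, against 2.02 to 32.8 for 7 fibroblast, 5.28 to 9.02 for 8 myeloid and 1.43 to 14.1 for 6 T cell markers. WT replicate 1 and Degs2_KO replicate 3 stood apart on the first principal component (50.3% of the variance), and their summed CPM of 5 posterior Hox genes was 46.6 and 49.4, against 119 to 189 in the others, and of 10 stress genes 1075 and 1169, against 2430 to 3839, so results are also given without this pair; their part in the results was not tested. Degs2 was at 106 to 151 CPM in WT and 47.7 to 65.9 CPM in Degs2_KO, and the groups did not overlap. Its log2 fold change was -1.07 ± 0.15 (SE), with an unadjusted edgeR p of 4.94e-05. It did not pass after adjustment over all genes (edgeR adjusted p = 0.796).

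The synthesis route was expressed throughout, while the efflux transporters were among the lowest of the 32 genes. On a per-length scale, which allows levels of different genes to be compared, Hmgcs1, the HMG-CoA synthase at the entry of the mevalonate route, was highest with 91.2 ± 23.2 CPM per kb of exon in WT (SD, n = 4). The isoprenoid isomerase Idi1 followed at 53.3 ± 7.85 CPM per kb, then the sterol carrier Stard4 at 48.8 ± 4.39 and Srebf2 at 45.7 ± 4.44. The lanosterol demethylase Cyp51 was at 43.5 ± 6.81 and Insig1 at 41.2 ± 14.8 CPM per kb; neighbours in this order from Idi1 to Insig1 did not differ beyond their SDs. All 20 enzymes from Acat2 to Dhcr7 lay at 6.47 CPM per kb (Lss, lanosterol synthase) or above. This scale depends on the length of all annotated exons merged, 10787 bp for Lss against 2675 bp for Mvk and 1713 bp for Pmvk. In CPM, Lss (69.8 in WT) was above Mvk (26.1) and Pmvk (22.4).

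Among the efflux and esterification genes the levels were split. Nr1h2, which encodes liver X receptor beta, was at 23.5 ± 0.870 CPM per kb in WT, and the esterifying enzyme Soat1 at 9.78 ± 0.828. Soat2, its relative of hepatocytes and enterocytes, was at 0.517 ± 0.226 CPM per kb. Abca1 (0.358 ± 0.146), Abcg1 (0.270 ± 0.0661) and Npc1l1 (0.0953 ± 0.0724 CPM per kb) were lowest. The 4 last genes did not reach 1 CPM per kb on average in WT, and the SD ranges of Soat2 and Abca1 overlapped, as did those of Abca1 and Abcg1.

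**Figure D1:**
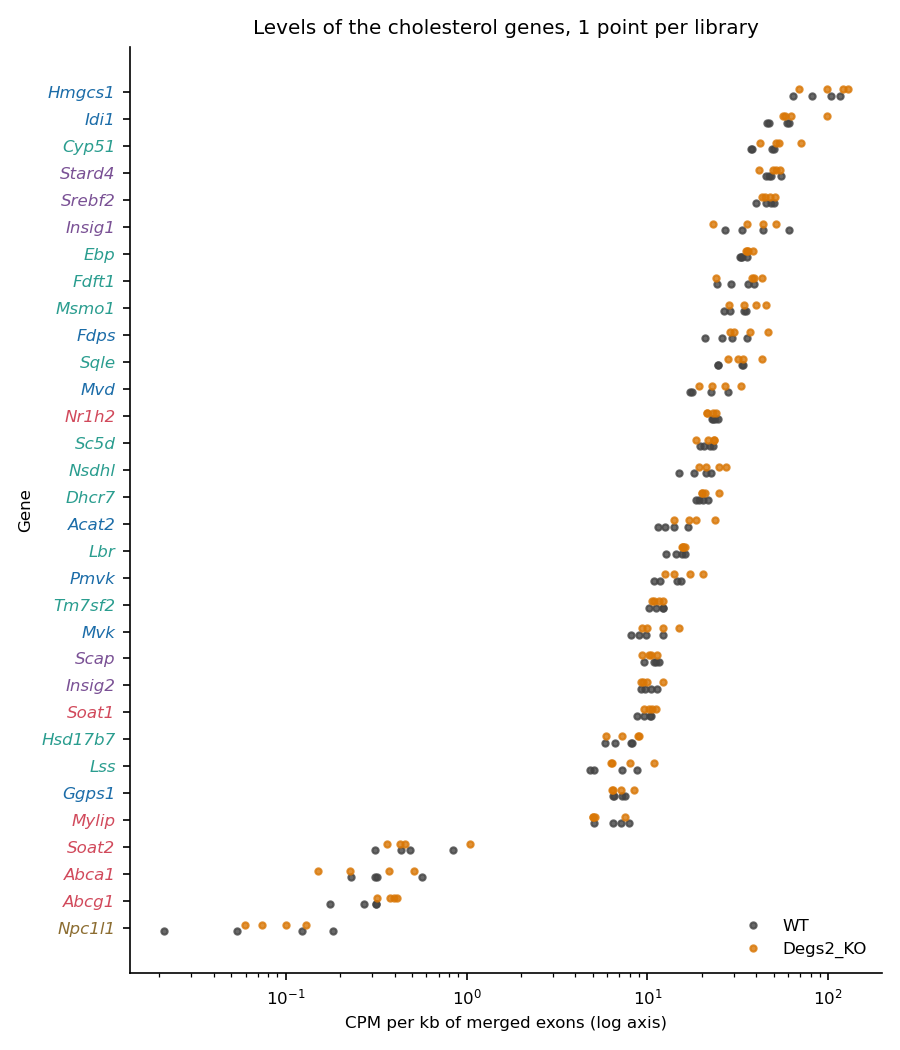
Level of each of the 32 genes in each library, in CPM per kb of merged exons on a log axis, with 1 point per library (grey, WT; orange, Degs2_KO). Hmgcs1 is at the top and Soat2, Abca1, Abcg1 and Npc1l1 form a separate low group.

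Promoter windows from RefSeq (GRCm38.p6, 250 bases before to 50 after each start) were found for 26 members and searched for 2 motifs on both strands. TCACNCCAC, a form of the sterol regulatory element to which SREBP2 binds, was found in the window of Hmgcs1 alone among the members. That is 1 of 26 members (3.85%), against 1.42% of the 11143 tested genes with a window and 1.24% of all 32851 windows. CCAAT, the box bound by NF-Y, a factor that works beside SREBP2 at many sterol promoters, was found in 16 of the 17 SREBP2-driven members with a window (94.1%), all but Acat2. It was found in 42.6% of the 11143 tested genes with a window, in 37.4% of all windows, and in 2 of 4 efflux and esterification members (Mylip and Soat1). Insig2, Ggps1, Lbr and Npc1l1, also not taken as SREBP2-driven, held it too, and 22 of all 26 members did (84.6%). In Hmgcs1 the matches to the motifs did not overlap. A match is a description of these letters, and other forms of the sterol element were not searched. Fdps, Fdft1, Sqle, Stard4, Abcg1 and Soat2 had no window.

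Upstream stretches are shown for Hmgcs1, for 2 synthesis genes that followed it across libraries (Sc5d and Mvd), and for Mylip, which ran against it. These were chosen after their values were seen, among windows with a run of at least 200 bases outside every annotated exon. Each reads 5′ to 3′ on the gene's strand and ends just before the RefSeq start, with TCACNCCAC or CCAAT on either strand in capitals (ATTGG is CCAAT on the other strand). They lie at chr13:119690101-119690350 (plus strand), chr9:42264301-42264550 (minus), chr8:122443423-122443672 (minus) and chr13:45389492-45389741 (plus), in that order.
Hmgcs1: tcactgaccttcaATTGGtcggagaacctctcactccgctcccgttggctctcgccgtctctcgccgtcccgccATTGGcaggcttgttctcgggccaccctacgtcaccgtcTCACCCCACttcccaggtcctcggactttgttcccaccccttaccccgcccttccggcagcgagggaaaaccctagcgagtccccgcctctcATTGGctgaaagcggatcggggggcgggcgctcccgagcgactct
Sc5d: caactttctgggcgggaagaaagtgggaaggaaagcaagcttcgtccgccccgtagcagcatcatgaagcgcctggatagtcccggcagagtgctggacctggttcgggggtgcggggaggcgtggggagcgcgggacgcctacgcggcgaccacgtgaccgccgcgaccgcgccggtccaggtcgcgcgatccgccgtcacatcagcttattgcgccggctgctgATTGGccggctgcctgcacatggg
Mvd: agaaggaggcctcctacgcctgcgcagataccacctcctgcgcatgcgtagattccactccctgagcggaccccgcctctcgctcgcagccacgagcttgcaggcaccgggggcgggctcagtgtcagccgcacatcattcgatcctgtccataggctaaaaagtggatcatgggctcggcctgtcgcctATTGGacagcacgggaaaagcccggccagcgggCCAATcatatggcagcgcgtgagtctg
Mylip: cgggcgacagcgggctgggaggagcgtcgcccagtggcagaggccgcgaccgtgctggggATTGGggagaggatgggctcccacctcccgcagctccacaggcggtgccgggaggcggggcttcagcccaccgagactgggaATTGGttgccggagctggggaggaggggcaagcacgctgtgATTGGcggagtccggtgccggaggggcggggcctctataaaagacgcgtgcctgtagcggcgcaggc
The Hmgcs1 stretch holds 1 sterol element and 3 CCAAT boxes, that of Sc5d 1 CCAAT box, that of Mvd 2, and that of Mylip 3. The stretch of Cyp51 (r of 0.84 with Hmgcs1) met the same rule, held neither motif in its 201 bases and is not shown. The CCAAT box of Cyp51, at -29 from the start, lies outside that stretch.

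Between the genotypes no member passed the test. With p-values adjusted over the 16132 genes tested (Benjamini-Hochberg), the quasi-likelihood test of edgeR called 0 of 32 members, where it called 0% of all genes. The smallest adjusted p of a member was 0.9996. DESeq2 called 0 members too, and limma-trend 0. At an unadjusted p under 0.05 edgeR found 1 member, Acat2, where 1.13% of all genes were under it. DESeq2 and limma-trend found 2 members each, where 1.33% and 1.15% of all genes were under it. For 29 members the 95% interval stayed inside a 2-fold change in either direction, and for 13 inside 1.5-fold; Abca1, Soat2 and Npc1l1 were the 3 outside 2-fold.

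Estimates were counted by role, with no test of a difference between roles. Of 21 genes taken as SREBP2-driven from general knowledge, 19 had a log2 fold change above 0 (Degs2_KO over WT) and 2 below, with a median of 0.23. Over all tested genes 47.4% were above 0, with a median of -0.01. The list was known to lean upward from earlier results of these data, so its direction is no independent evidence. Of the 6 efflux and esterification genes 3 were above 0 and 3 below, with a median of 0.01. Without Degs2_KO replicate 4 the SREBP2-driven median was 0.09, with 17 of 21 above 0, and the efflux and esterification median was 0.07, with 4 of 6 above 0. For the SREBP2-driven genes, with a block on adjoining ID numbers the median was 0.39. That block held 3 pairs and left out WT replicate 4 and Degs2_KO replicate 2. With no block, leaving out that WT library alone gave 0.29, and that Degs2_KO library alone 0.33. Without WT replicate 1 and Degs2_KO replicate 3 the SREBP2-driven median was 0.32, with 20 above 0.

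**Figure D2:**
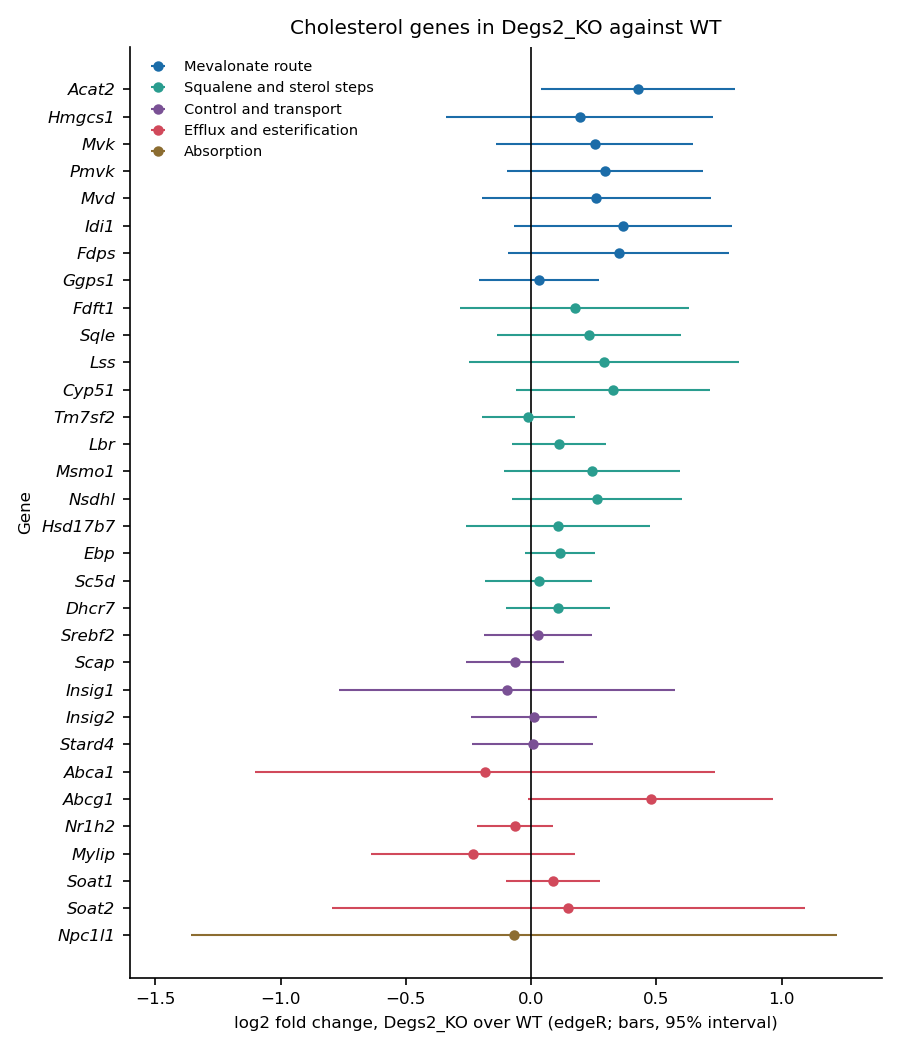
Estimated log2 fold change of each gene in Degs2_KO over WT (points) with its 95% interval (bars) from edgeR, coloured by role. Acat2 is the gene whose interval lies wholly above 0, and those of Abca1, Soat2 and Npc1l1 are the widest.

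In the mevalonate route all 8 genes had estimates above 0, and none passed. Acat2, the cytosolic thiolase that joins acetyl-CoA units, was at 42.5, 35.5, 29.1 and 31.7 CPM in WT replicates 1 to 4 and at 35.9, 43.4, 47.3 and 60.0 CPM in Degs2_KO replicates 1 to 4. Only WT replicate 1 and Degs2_KO replicate 1 overlapped, and the other Degs2_KO libraries were above every WT library. The log2 fold change was 0.43 ± 0.17 (SE), 1.34-fold with an interval of 1.03 to 1.76, at an unadjusted edgeR p of 0.0347 and an adjusted p of 0.9996. It ranged from 0.28 without Degs2_KO replicate 4 to 0.55 without WT replicate 1.

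Idi1, which interconverts the isoprenoid building blocks, was at 207, 166, 161 and 214 CPM in WT and at 202, 198, 219 and 344 CPM in Degs2_KO. Degs2_KO replicate 4 was far above the rest, which overlapped between the groups. The log2 fold change was 0.37 ± 0.19 with an unadjusted edgeR p of 0.0897, and 0.14 without that library.

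Fdps, which makes farnesyl diphosphate, was at 149, 109, 88.1 and 124 CPM in WT and at 121, 127, 156 and 195 CPM in Degs2_KO. The groups overlapped, with WT replicate 3 lowest and Degs2_KO replicate 4 highest. Its log2 fold change was 0.35 ± 0.19 (unadjusted edgeR p of 0.106), and 0.20 without Degs2_KO replicate 4.

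Hmgcs1 was at 476, 293, 374 and 533 CPM in WT and at 558, 317, 451 and 589.8 CPM in Degs2_KO. Replicate 2 was the lowest library in either group, and the spread within a genotype was larger than the difference between genotypes. The log2 fold change was 0.19 ± 0.23 (unadjusted edgeR p of 0.432), 1.14-fold with an interval of 0.791 to 1.65. It was 0.06 without WT replicate 2, 0.08 without Degs2_KO replicate 4 and 0.50 with the block on ID numbers. That block also left out WT replicate 4 and Degs2_KO replicate 2. With no block, leaving out that WT library alone gave 0.33, and that Degs2_KO library alone 0.35. The antisense gene Gm48342 overlaps Hmgcs1 and was at a mean of 44.4 CPM; no label says if reads were counted by strand, so reads of the pair may be mixed.

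The other mevalonate enzymes were the kinases Mvk (0.25 ± 0.17) and Pmvk (0.29 ± 0.17), the decarboxylase Mvd (0.26 ± 0.20) and Ggps1, which makes geranylgeranyl diphosphate for protein prenylation (0.03 ± 0.11). These are log2 fold changes with SE. Without Degs2_KO replicate 4 they were 0.11 for Mvk, 0.16 for Pmvk and 0.12 for Mvd, and Ggps1 was at -0.06 without Degs2_KO replicate 3. Ggps1 lies on a branch off the sterol route and was the gene of this role with the least spread, 1.32-fold between its lowest and highest library.

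Of the 12 genes of the squalene and sterol steps 11 had estimates above 0, none passed, and the median on the log2 scale was 0.14. Cyp51 was at 221, 165, 167 and 215 CPM in WT and at 227, 185, 236 and 314 CPM in Degs2_KO. The groups overlapped through Degs2_KO replicate 2, while the other 3 Degs2_KO libraries were above all of WT. The log2 fold change was 0.33 ± 0.17 (unadjusted edgeR p of 0.0898), and 0.17 without Degs2_KO replicate 4.

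Ebp, the sterol isomerase, was at 75.4, 81.6, 75.7 and 77.4 CPM in WT and at 83.6, 82.6, 81.5 and 88.3 CPM in Degs2_KO. WT replicate 2 and Degs2_KO replicate 3 differed by little and were the only pair to overlap. The difference was small, a log2 fold change of 0.12 ± 0.06 (unadjusted edgeR p of 0.0956), 1.08-fold with an interval of 0.983 to 1.19.

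Nsdhl, a sterol dehydrogenase of C4 demethylation, was at 64.4, 51.7, 42.8 and 60.5 CPM in WT and at 55.2, 60.1, 70.6 and 77.3 CPM in Degs2_KO. Degs2_KO replicates 3 and 4 were above every WT library and the other libraries overlapped. The log2 fold change was 0.26 ± 0.15 (unadjusted edgeR p of 0.115), and 0.16 without WT replicate 3.

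The remaining sterol genes split into a variable and a steady group. Squalene synthase Fdft1 (0.17 ± 0.20), squalene epoxidase Sqle (0.23 ± 0.16), Lss (0.29 ± 0.24), the methyl oxidase Msmo1 (0.24 ± 0.15) and Hsd17b7 (0.11 ± 0.16) varied 1.55-fold to 2.28-fold between their lowest and highest library. The late enzymes Sc5d (0.03 ± 0.09) and Dhcr7 (0.11 ± 0.09), and the reductases Tm7sf2 (-0.01 ± 0.08) and Lbr (0.11 ± 0.08), the last also a receptor for lamins at the nuclear envelope, varied 1.20-fold to 1.33-fold. The values in brackets are log2 fold changes with SE. Without Degs2_KO replicate 4 they were 0.10 for Sqle, 0.09 for Lss, 0.13 for Msmo1 and 0.03 for Dhcr7, and without WT replicate 2 they were 0.06 for Fdft1, 0.02 for Hsd17b7 and -0.01 for Sc5d. Reads over the ends of Fdft1 and Cyp51, which overlap Ctsb and Akap9 on the opposite strand, cannot be told apart without strand, and likewise for Ggps1 and Arid4b.

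**Figure D3:**
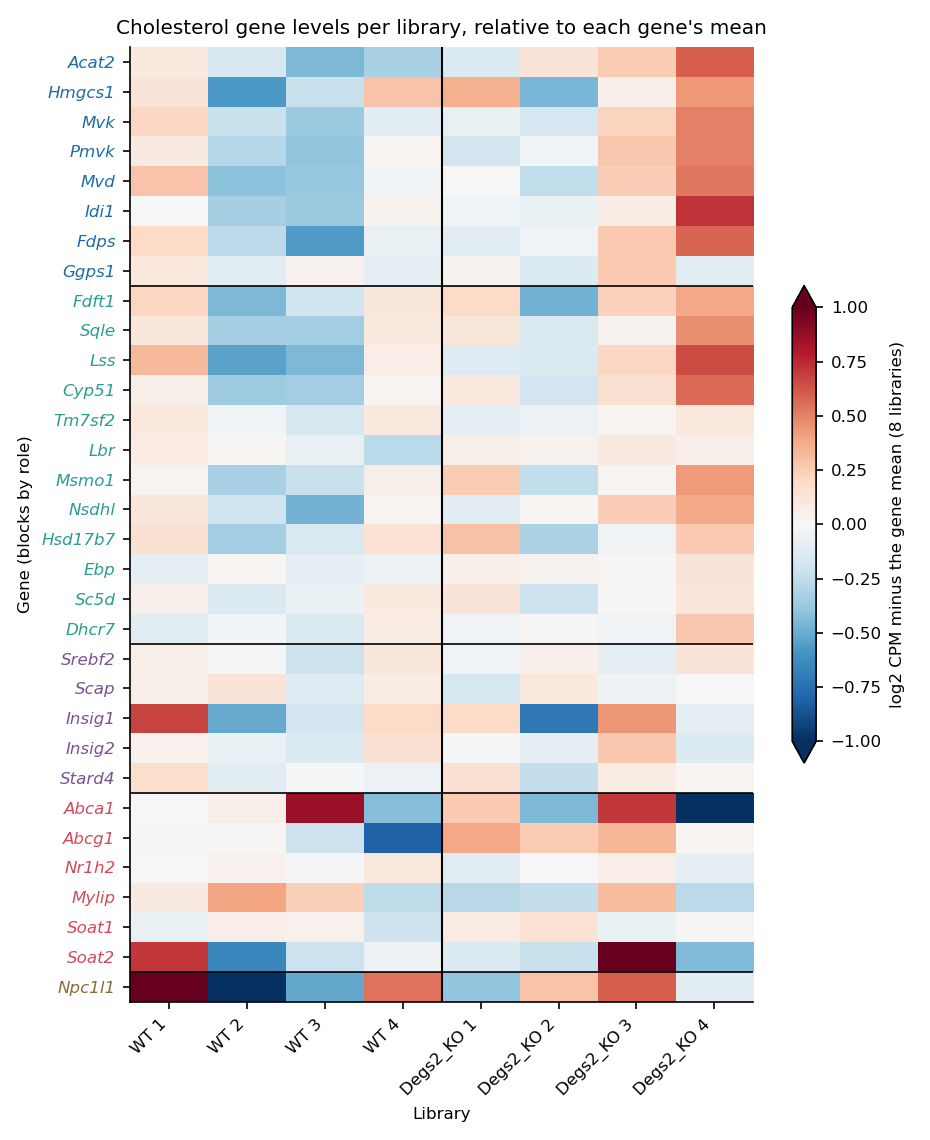
Colour shows log2 CPM in each library minus the gene's mean over the 8 libraries, with genes in blocks by role, WT left and Degs2_KO right of the line. Degs2_KO replicate 4 is highest for 17 of the 21 SREBP2-driven genes and WT replicate 3 lowest for 10, while Insig1 is highest in WT replicate 1.

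No regulator passed the test, and Insig1 had the widest spread among libraries. Srebf2 was at 345, 326, 285 and 358 CPM in WT and at 323, 344, 310.3 and 363 CPM in Degs2_KO, with overlapping groups and a log2 fold change of 0.03 ± 0.10 (unadjusted edgeR p of 0.782). Scap was at 81.2, 86.1, 71.7 and 82.9 CPM in WT and at 69.5, 84.6, 75.6 and 78.4 CPM in Degs2_KO, with a log2 fold change of -0.06 ± 0.09 (unadjusted edgeR p of 0.483). For both genes the interval lay within 1.5-fold.

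Insig1, itself a target of SREBP2, was at 188, 83.1, 103 and 135 CPM in WT and at 135, 71.7, 159.6 and 110.5 CPM in Degs2_KO. It varied 2.63-fold between libraries, more than any other SREBP2-driven gene, and was highest in WT replicate 1 and Degs2_KO replicate 3. Its log2 fold change was -0.10 ± 0.29 (unadjusted edgeR p of 0.752). It turned positive without WT replicate 1 (0.16), without Degs2_KO replicate 2 (0.08) and with the block on ID numbers (0.18). That block also left out Degs2_KO replicate 2 and WT replicate 4. Insig2, the form that is not a target of SREBP2, varied 1.34-fold, with a log2 fold change of 0.01 ± 0.11. Stard4, which moves sterols between membranes, had a log2 fold change of 0.01 ± 0.11.

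On the efflux side Abcg1 was the only member with groups that did not overlap. Abcg1, which passes cholesterol to lipoprotein particles, was at 2.31, 2.31, 1.98 and 1.29 CPM in WT and at 3.01, 2.75, 2.90 and 2.32 CPM in Degs2_KO. The highest WT and the lowest Degs2_KO library were nearly equal. Groups did not overlap, with Degs2_KO higher, for 0.484% of all tested genes, and in either direction for 1.04%. The log2 fold change of 0.48 ± 0.22 did not pass edgeR's test (unadjusted p of 0.0545, adjusted p = 0.9996), and the 1.39-fold difference had an interval of 0.992 to 1.95.

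Abca1, which loads cholesterol onto apolipoproteins, was at 3.23, 3.33, 5.90 and 2.39 CPM in WT and at 3.88, 2.35, 5.27 and 1.57 CPM in Degs2_KO. It was highest in WT replicate 3, where 0 of the 21 SREBP2-driven genes were above their own mean. It was lowest in Degs2_KO replicate 4, where 20 were. Other libraries went the other way: Degs2_KO replicate 3, the next highest, had 18 above, and Degs2_KO replicate 2, the next lowest, had 5. The groups overlapped widely, with a log2 fold change of -0.18 ± 0.40 (unadjusted edgeR p of 0.660), 0.13 without WT replicate 3, 0.05 without Degs2_KO replicate 4 and -0.57 without WT replicate 1 and Degs2_KO replicate 3. Macrophages express both transporters strongly. The summed CPM of the myeloid markers was 5.28 to 9.02 in WT and 5.50 to 6.14 in Degs2_KO, with none of the 8 at 0 in every library; their part in the level of Abca1 and Abcg1 was not tested. In bulk samples fewer cells of a type and less RNA per cell cannot be told apart.

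Mylip, a ubiquitin ligase for lipoprotein receptors, was at 20.8, 25.6, 23.0 and 16.4 CPM in WT and at 16.1, 16.5, 24.3 and 16.2 CPM in Degs2_KO. WT replicate 4 sat with the 3 low Degs2_KO libraries, and Degs2_KO replicate 3 with the high WT ones. Its log2 fold change was -0.23 ± 0.18 (unadjusted edgeR p of 0.227), and -0.41 without WT replicate 1 and Degs2_KO replicate 3. Nr1h2 was at 77.4, 79.3, 75.9 and 82.7 CPM in WT and at 71.7, 77.0, 80.4 and 72.1 CPM in Degs2_KO, with overlapping groups and a log2 fold change of -0.07 ± 0.07 (unadjusted edgeR p of 0.351).

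Soat1 was at 93.5, 103, 101 and 85.3 CPM in WT and at 104, 109, 94.2 and 99.5 CPM in Degs2_KO. The groups overlapped, and the log2 fold change was 0.09 ± 0.08 (unadjusted edgeR p of 0.323). Soat2 was at 1.86, 0.690, 0.955 and 1.07 CPM in WT and at 1.01, 0.949, 2.30 and 0.807 CPM in Degs2_KO. WT replicate 1 and Degs2_KO replicate 3, the libraries with low posterior Hox genes, held its highest levels in their groups, and its log2 fold change was 0.15 ± 0.42 (unadjusted edgeR p of 0.731), -0.03 without WT replicate 2 and -0.31 without Degs2_KO replicate 3.

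Npc1l1, the cholesterol uptake protein of the small intestine, was at 0.819, 0.0952, 0.239 and 0.549 CPM in WT and at 0.265, 0.451, 0.575 and 0.332 CPM in Degs2_KO. It was the least expressed of the 32 genes. It varied 8.60-fold between libraries, a range that rests on few fragments in WT replicate 2 and is uncertain. Its log2 fold change was -0.07 ± 0.57 (unadjusted edgeR p of 0.909), and ran from -0.40 without WT replicate 2 to 0.47 without WT replicate 1.

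Averaged over genes, the synthesis side varied widely within each genotype. The mean log2 CPM of the 21 SREBP2-driven genes, after each gene's mean was taken off, was 0.14, -0.27, -0.28 and 0.04 in WT replicates 1 to 4 and 0.04, -0.17, 0.13 and 0.37 in Degs2_KO replicates 1 to 4. Of these genes 20 were above their own mean in Degs2_KO replicate 4, against 0 in WT replicate 3 and 1 in WT replicate 2. The same mean over the 6 efflux and esterification genes was 0.12, -0.02, 0.12 and -0.27 in WT and 0.04, -0.08, 0.39 and -0.30 in Degs2_KO. The synthesis mean less the efflux mean was widest in Degs2_KO replicate 4 (0.66) and lowest in WT replicate 3 (-0.39), and WT replicate 4 (0.31) also lay on the synthesis side.

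Markers of other cells differed between the libraries at these ends. The summed CPM of the fibroblast markers was 2.02 in Degs2_KO replicate 4, the lowest of all, 9.57 in WT replicate 3 and 32.8 in WT replicate 4, the highest. The sum of 10 genes of dividing cells was 458 in WT replicate 4 and between 695 and 851 in the others. Their part in the synthesis levels was not tested.

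**Figure D4:**
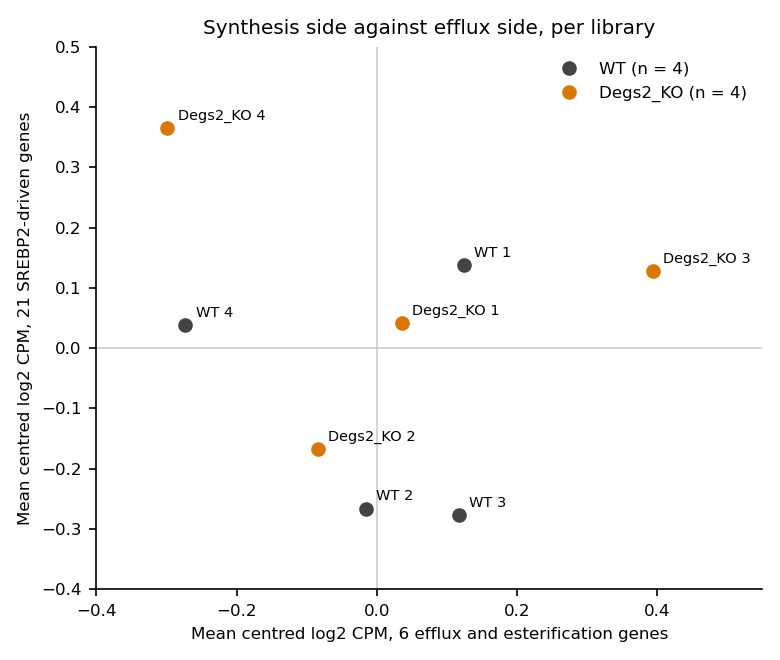
Each point is a library, with the mean centred log2 CPM of the 6 efflux and esterification genes on the horizontal axis and of the 21 SREBP2-driven genes on the vertical axis (grey, WT; orange, Degs2_KO). Degs2_KO replicate 4 lies at the upper left, at -0.30 and 0.37, and on the vertical axis WT runs from -0.28 to 0.14 and Degs2_KO from -0.17 to 0.37.

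Covariation across libraries was measured against Hmgcs1, chosen as the reference for its place at the entry of the route. Pearson's r of log2 CPM was positive for all 20 other SREBP2-driven genes, with a median of 0.68, where 49.3% of 16131 tested genes had a positive r and their median was -0.007. The median was 0.72 in the 6 libraries without WT replicate 1 and Degs2_KO replicate 3, where all 20 stayed positive. With genotype means removed it was 0.69, and Ebp alone turned negative (-0.03). For the efflux and esterification genes 5 of 6 were negative, with a median of -0.30. The smallest exact permutation p of r among these 6 was 0.150 (Mylip). Abcg1, with an r of -0.15, had a Spearman's rho of 0.21. The genes share libraries and depth, and the SREBP2-driven list was drawn up as a coregulated set.

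Hsd17b7, a sterol ketoreductase, had the highest r with Hmgcs1 of all 16131 genes, 0.98 (Spearman's rho 0.95, exact 2-sided permutation p = 0.000124 and 0.00114). It was chosen for its rank after the values were seen. Hsd17b7 was at 41.9, 29.8, 33.9 and 41.6 CPM in WT and at 46.1, 30.3, 36.9 and 45.3 CPM in Degs2_KO. As in Hmgcs1, replicate 2 was the low library of each group. Its r was 0.99 in the 6 libraries (exact permutation p = 0.00278), 0.95 without WT replicate 2 and Degs2_KO replicate 2, the libraries farthest from the median of Hmgcs1, and 0.98 with genotype means removed.

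Sc5d, a late desaturase, ranked 2 with an r of 0.97 (rho 0.95, exact permutation p = 0.000397 and 0.00114), Fdft1 ranked 4 with 0.94 (rho 0.76, exact permutation p = 0.00206 and 0.0368) and Msmo1 ranked 5 with 0.94 (rho 1, exact permutation p = 0.00057 and 4.96e-05, the smallest that rho allows here). Sc5d varied 1.26-fold between its lowest and highest library, against 2.01-fold for Hmgcs1. Sqle (0.88), Cyp51 (0.84), Mvd (0.79), Lss (0.74) and Idi1 (0.70) followed. Exact permutation p-values were under 0.05 with a positive r for 9 of 31 members, where 1.08% of all genes were; in the 6 libraries it was 8 members against 1.41% of all genes. After Benjamini-Hochberg adjustment over all genes, 0 members and 0% of all genes passed by Pearson's r, and 0 by rho. The smallest adjusted permutation p of any gene was 0.400. The pairings of 8 libraries allow no permutation p of r under 2.48e-05, and a lone gene at that floor reaches only 0.400. Passing needed several genes at the floor, so the lack of calls cannot show that covariation is absent. Gm48342, which overlaps Hmgcs1, had an r of 0.92.

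The other SREBP2-driven genes had r between 0.20 and 0.68; differences between r were not tested. Mvk, Pmvk, Fdps, Nsdhl and Tm7sf2 lay between 0.50 and 0.64. Acat2 had an r of 0.30, Dhcr7 of 0.46, Ebp of 0.20 and Srebf2 of 0.38 (exact permutation p = 0.464, 0.263, 0.634 and 0.352). Insig1 had an r of 0.68 (exact permutation p = 0.0659) and Stard4 of 0.68 (exact permutation p = 0.0667). Without WT replicate 1 and Degs2_KO replicate 3 these were 0.87 and 0.74. Without WT replicate 2 and Degs2_KO replicate 2 they fell to 0.06 and 0.13, so their relation depends on which libraries are kept. With those replicate 2 libraries left out, Dhcr7 had 0.77, Srebf2 0.84 and Ebp 0.69.

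Mylip had the lowest r with Hmgcs1 among the members, -0.56 (rho -0.81, exact permutation p = 0.150 and 0.0218), and -0.88 without those replicate 2 libraries. Abca1 had -0.27 (exact permutation p = 0.505), and -0.82 without them. Soat1 had -0.51 (exact permutation p = 0.199), and -0.08 without them. None of these passed after adjustment over all genes, which the number of pairings put nearly out of reach.

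**Figure D5:**
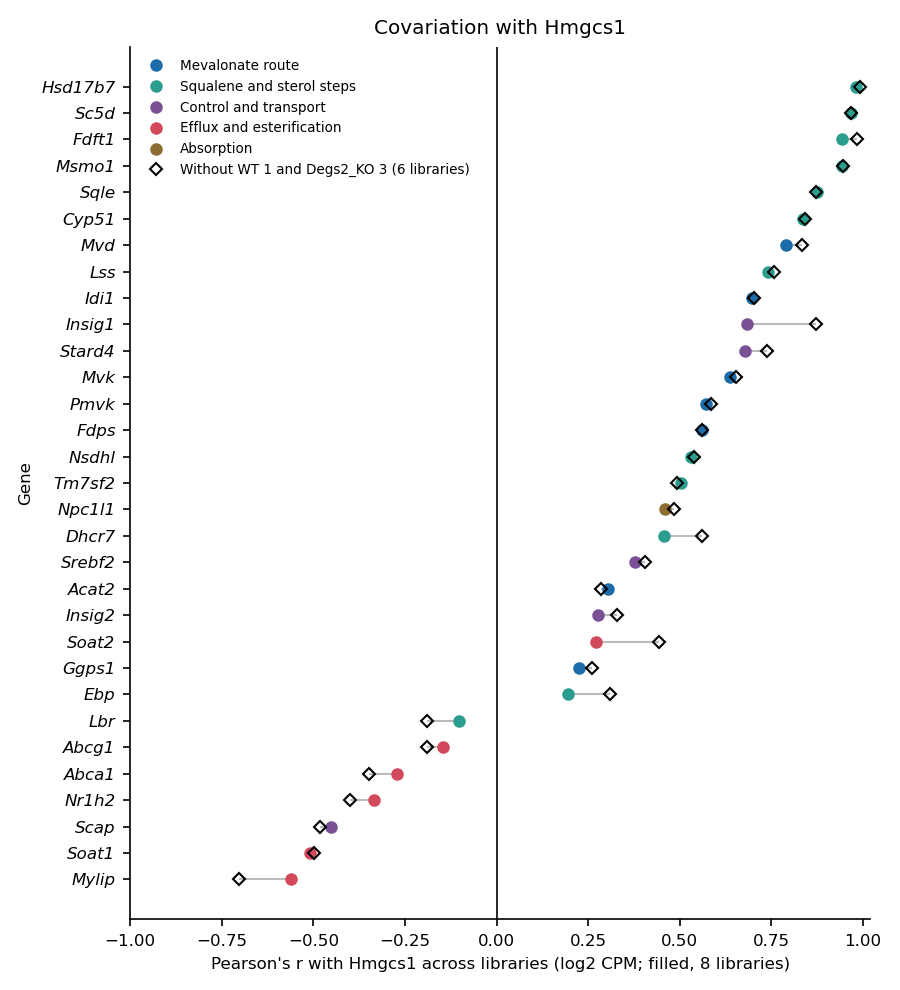
Pearson's r of each gene with Hmgcs1 across libraries, for all 8 libraries (filled, coloured by role) and for the 6 without WT replicate 1 and Degs2_KO replicate 3 (open diamonds). Hsd17b7, Sc5d, Fdft1 and Msmo1 lie between 0.94 and 0.98, and Mylip is lowest at -0.56.

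Of 33 further genes of sterol sensing, transport and the isoprenoid branches, 32 were tested, 17 with estimates above 0 and 15 below, 0 called by edgeR and a median of 0.002 on the log2 scale. At an unadjusted p under 0.05 there was 1, Gramd1b, a carrier of plasma membrane cholesterol to the endoplasmic reticulum. Gramd1b was at 24.6, 18.1, 20.1 and 25.8 CPM in WT and at 16.8, 17.3, 19.3 and 17.2 CPM in Degs2_KO, with a log2 fold change of -0.33 ± 0.12 (unadjusted edgeR p of 0.0276, adjusted p = 0.9996). The groups overlapped in WT replicate 2 and Degs2_KO replicate 3. Abcg5, a sterol exporter, had a log2 fold change of -0.84 ± 0.48 (unadjusted edgeR p of 0.117) and Scarb1, a lipoprotein receptor, 0.21 ± 0.12 (unadjusted edgeR p of 0.125).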

How the data were processed

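The submitters' processing notes name the mm10 build, TopHat2 2.0.10, Cuffdiff, Cufflinks 2.1.1 and cutadapt 1.9; no source used here gives their order, the annotation or the strand setting. The authors deposited estimated counts of fragments per gene, scaled by 1 factor per library, with a status word for each. Dividing by the smallest step gave whole values, within 0.02, for 96.9% to 97.2% of values up to 100. In 47 genes a failed estimate (status FAIL or HIDATA) is listed at 0; these were left out, and no member was among them.

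Estimated counts were rounded and compared with edgeR 4.0.16 in R 4.3.3: filterByExpr (minimum count 10, total 15), TMM, quasi-likelihood F test, genotype as the only term, 2-sided, Benjamini-Hochberg over 16132 genes at 0.05. Alternatives used DESeq2 1.42.0 and limma 3.58.1. All 32 members passed the count filter; Npc1l1, Soat2 and Abcg1 did so at low counts. In the deposited scale, 3 fragments equal 2.61 to 3.93, which covers counting error only. log2 CPM used a prior count of 2. Covariation used all 40320 pairings of 8 libraries (720 of 6). Exon lengths are from GENCODE M21 (GRCm38, the assembly called mm10).

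The members, lists and tests were chosen with earlier results of these data known. Values per library are given for the 3 members of each role with the smallest p, for Hmgcs1, for all efflux and esterification genes and Npc1l1, and for Hsd17b7, picked for its correlation rank after its values were seen; the other members are summarised. SREBP2-driven genes were Hmgcs1, Sqle, Idi1, Fdps, Fdft1, Lss, Cyp51, Dhcr7, Sc5d, Msmo1, Nsdhl, Insig1, Stard4, Mvd, Mvk, Acat2, Hsd17b7, Tm7sf2, Ebp, Srebf2 and Pmvk. No library pair agreed within sampling noise.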

Additional observations from a re-analysis of the deposited data

Results flagged for a closer look

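Of 64 groups of 4 libraries (32 genes in each genotype), 4 held a library far from the other 3, where chance gives about 1 in 20. Idi1 was at 344 CPM in Degs2_KO replicate 4, with the next library at 219 CPM and the lowest at 198 CPM. Dhcr7 was at 145 CPM in the same library, with the others between 117 and 121 CPM. Mylip was at 24.3 CPM in Degs2_KO replicate 3, with the others between 16.1 and 16.5 CPM. Soat2 was at 2.30 CPM in Degs2_KO replicate 3, with the others between 0.807 and 1.01 CPM.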

How the results depend on the processing

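No member was called under any of the 18 alternatives; the lowest adjusted p was 0.879, without WT replicate 1, and between 0 and 4 members were under an unadjusted p of 0.05. Acat2 and every other member lay above it once WT replicate 3 was left out, and likewise for Degs2_KO replicate 4 and WT replicate 4. Over all genes that count ran from 79 (ID number block) to 782 (without WT replicate 1). DESeq2 called 2 of all genes, where edgeR and limma called 0. The SREBP2-driven median stayed above 0 under all of them, from 0.09 without Degs2_KO replicate 4 to 0.39 with the ID number block. The efflux and esterification median lay near 0 and changed sign, from -0.20 without Degs2_KO replicate 3 to 0.09 without WT replicate 3. The median r of the SREBP2-driven genes with Hmgcs1 lay between 0.65 (library totals) and 0.72. Replicate numbers are shared between the genotypes, and the deviations of same-numbered libraries had r of -0.42, 0.44, -0.56 and -0.10, positive for replicate 2 alone, so the numbers were not taken as pairs; with the replicate block 0 members were called, 99 genes were under an unadjusted edgeR p of 0.05 against 183 without it, and the SREBP2-driven median was 0.23. The adjoining ID numbers are not said to be a batch, and that block left out WT replicate 4 and Degs2_KO replicate 2. At 4 libraries a group, the median SE of a member's log2 fold change was 0.17, and no power was computed.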
